A study of Homo sapiens with 4 samples.

Results

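The machinery that copies DNA was followed through 46 genes in MRC5, a fibroblast line from human fetal lung, after treatment with microRNAs. The 46 genes were taken by symbol from a list of replication genes that was chosen with earlier results of these data known. Shares over all genes are therefore given beside the counts as description only. All 46 were among the 26255 genes listed for each library. Libraries of 2 groups, all labelled genotype WT, cell type normal and 48 h, were compared: miRs, treated with microRNAs that the labels do not name, with 2 libraries, and control, labelled as having no treatment, with 2 libraries. The series title instead sets miRs against NC-miR, so what the control cells received cannot be told from the labels. Nothing in the labels says that the libraries of a group came from separate cultures, so every p-value here measures the spread between libraries, which may be technical. Values are FPKM (fragments counted per length of transcript and per size of library), which can be compared between genes because of the division by length. Differences are miRs minus control on log2(FPKM + 1), a scale that understates the change of low genes. The number of reads behind each library is unknown. In bulk RNA, a change in the share of cells in S phase and a change in RNA per cell cannot be told apart.

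Copying of the genome begins before S phase, when the origin recognition complex, CDC6 and CDT1 load rings of MCM2 to MCM7 onto DNA, a step called licensing that geminin (GMNN) blocks by binding CDT1. In S phase, CDC45 and GINS join the rings to make the working helicase, polymerase alpha and its primase start each strand, and polymerases delta and epsilon extend it while held by the clamp PCNA, which RFC loads. RPA coats the unwound strand, FEN1 and LIG1 join the Okazaki fragments, and CHAF1A and CHAF1B put histones on the new DNA. Many of these genes are known targets of E2F factors and are transcribed as cells pass from G1 into S phase.

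Most replication genes had higher values in the miRs libraries, by small amounts, and none passed the test over all genes (limma, adjusted p under 0.05). Both miRs libraries exceeded both controls in 27 of the 46 genes, and in 0 of the 46 did both lie below, whereas over all 11860 tested genes the shares were 29.5% above and 30.0% below. The mean log2 level was higher in miRs for 40 of the 46 (49.8% of all tested genes). Over the 46 the log2 differences had a median of 0.32, beside −0.002 over all tested genes. The increase in mean FPKM exceeded 2-fold in 2 genes, CDC25A and GMNN, and was at least 1.5-fold in 11. All 46 passed the minimum mean of 1 FPKM, so none was lost to it.

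In limma 0 of the 46 had an adjusted p under 0.05, where 0.245% of all tested genes did, and the smallest adjusted p among the members was 0.0846, for ORC2. At an unadjusted p under 0.05 there were 11 members, all higher in miRs, against 11.2% of all tested genes higher and 13.0% lower at that level. An exact permutation test of 2 against 2 libraries cannot give a 2-sided p below 0.333, so that test cannot reach 0.05 for any gene.

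**Figure D1:**
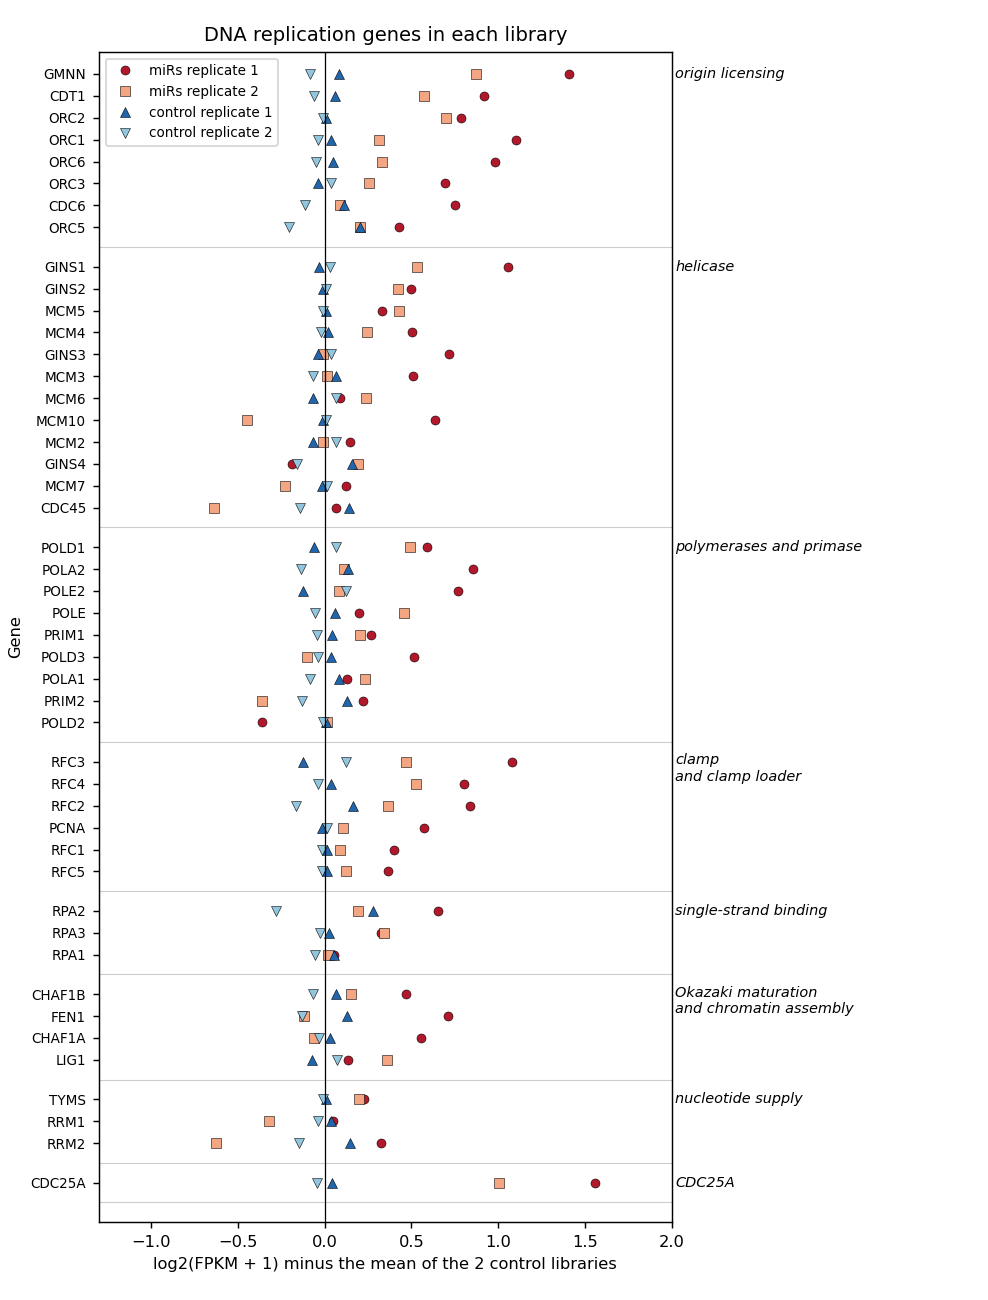
Each of the 46 replication genes is a row, grouped by role, and each point is 1 library's log2(FPKM + 1) minus the mean of the 2 controls. The point of miRs replicate 1 lies to the right of that of miRs replicate 2 in 38 rows and reaches 1.56 for CDC25A, and replicate 2 ranges down to -0.63 for CDC45.

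The miRs libraries differed from each other more than the controls did, and the replication genes shared in this. Over all tested genes the miRs libraries lay more than 1.5-fold apart in 24.6% and the controls in 5.89%, and among the 46 members in 15 and in 1, the 1 being RPA2. The differences had a direction in the members: miRs replicate 1 was above miRs replicate 2 in 38 of 46, beside 51.1% of all tested genes. Set against the control mean on the log2 scale, the members had a median of 0.51 in replicate 1 and of 0.19 in replicate 2 of the miRs group. Control replicate 1 was above control replicate 2 in 33 of 46, beside 51.2% of all tested genes. Replicate 1 lay above both controls in 43 members (44.1% of all genes) and replicate 2 in 29 (42.7%). Replicate 1 lay below both controls in 2, GINS4 and POLD2, where 44.5% of all genes did. Replicate 2 lay below both controls in 8, namely MCM7, MCM10, CDC45, PRIM2, POLD3, CHAF1A, RRM1 and RRM2, where 42.6% of all genes did. In 9 members, MCM7, MCM10, GINS4, PRIM2, POLD2, POLD3, CHAF1A, RRM1 and RRM2, the miRs libraries fell on opposite sides of both controls, as in 17.7% of all genes.

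**Figure D2:**
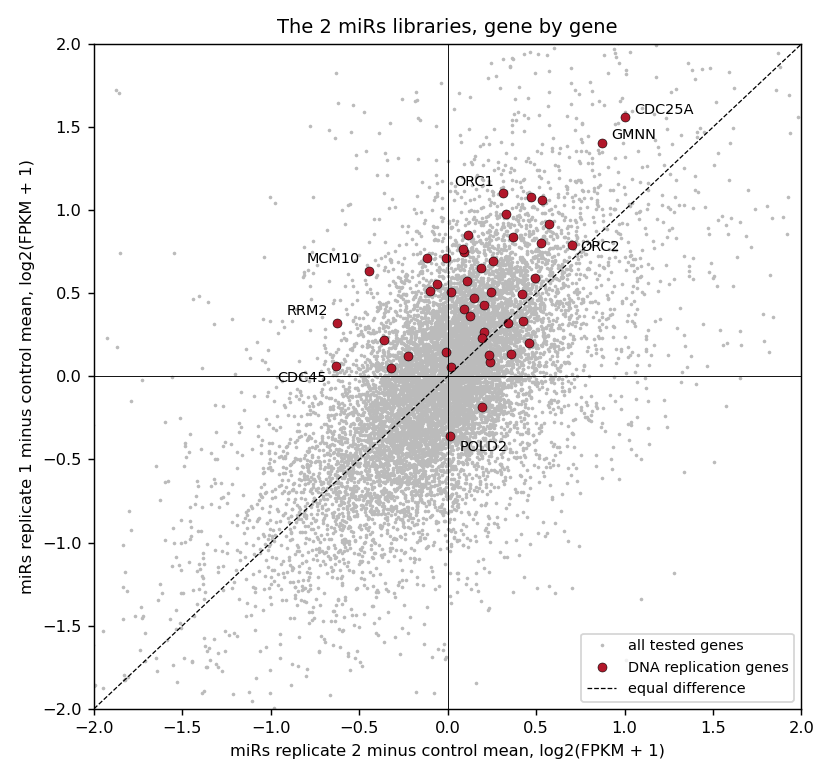
The difference from the control mean in log2(FPKM + 1) is plotted for miRs replicate 1 (vertical) against miRs replicate 2 (horizontal), with all tested genes in grey, the 46 replication genes in red and equality dashed; genes beyond ±2 are outside the frame. Of the 46 genes 38 have a higher FPKM in replicate 1 than in replicate 2, with GMNN at 1.41 and 0.87.

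Other genes differed between the libraries beside these values, and their part in the result was not tested. Summed over 12 interferon response genes, FPKM was 10034 and 2111 in miRs replicates 1 and 2, against 107 and 128 in control replicates 1 and 2, and all 12 lay above both controls in both miRs libraries. Summed over 20 mitotic genes it was 841 and 795 in the miRs libraries, against 658 and 610 in the controls, and 17 of the 20 lay above both controls in both miRs libraries. The 10 fibroblast markers were all detected, with sums of 8020 and 12532 FPKM in miRs and 12034 and 10894 FPKM in control. Of these, 4 lay below both controls in both miRs libraries (FN1, LUM, THY1 and VIM) and 1 above (S100A4), and the median log2 difference was −0.40. Over all tested genes 30.0% lay below and 29.5% above in this way. THY1, a surface marker of fibroblasts, had 188 and 175 FPKM in the miRs libraries, against 406 and 335 FPKM in the controls (adjusted p = 0.0731 in limma). Of 8 epithelial markers, KRT5, SFTPC and SCGB1A1 were listed at 0 in all 4 libraries. The summed level was 22.4 and 8.72 FPKM in miRs against 4.16 and 3.10 FPKM in control. CLDN4 had 11.8 and 3.36 FPKM in miRs, against 0.907 and 0.371 FPKM in control. MUC1 had 7.93 and 3.74 FPKM in miRs, against 3.22 and 2.50 FPKM in control. EPCAM had 1.07 and 1.61 FPKM in miRs, against 0 and 0.228 FPKM in control. CDH1 was at 0 in both miRs libraries, and KRT14 was above 0 in miRs replicate 1 alone, at 1.60 FPKM. Summed over 5 endothelial markers, FPKM was 13.8 and 5.59 in miRs and 13.6 and 11.0 in control, nearly all from TEK, with PECAM1 and CDH5 at 0 in both controls and at or under 0.0188 FPKM in miRs. Summed over 5 blood markers it was 130.2 and 41.9 in miRs and 53.8 and 57.9 in control, nearly all from CD68, with CD3E listed at 0 throughout and PTPRC at or under 0.0182 FPKM. Between 11622 and 11781 genes reached 1 FPKM per library.

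What the 46 genes share at their starts can be read from RefSeq promoter sequences (build GRCh38.p14, unlike the hg19 of the deposited values, so genes were matched by symbol). A window of 300 bases, 250 before the start and 50 after, was held for 40 of them, and MCM4, MCM5, GINS4, POLD3, RPA2 and RPA3 had none. The E2F letters TTTCCCGC, TTTGGCGC, TTTCGCGC and TTTGCCGC were searched on both strands, and matches may overlap each other, as in MCM6. At least 1 stood in 19 of the 40 member windows (47.5%), 5.56% of the 8959 windows of tested genes and 3.33% of all 27305. With every listed start counted, 20 of the 40 members held a match, GMNN being added through another of its starts, as did 6.89% of tested genes. A match was present in 12 of the 24 windows whose gene lay above both controls in both miRs libraries and in 7 of the 16 others. The CCAAT letters occurred in 24 of 40 member windows (60.0%) and 36.7% of tested genes, and the CHR letters TTTGAA or TTCGAA in 2 of 40 (5.0%) and 11.1%.

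Of the 11 members at least 1.5-fold higher in mean FPKM in miRs, CDC25A, CDT1, GINS1 and RFC3 held a match. At the first listed start ORC1, ORC2, ORC6, GMNN, POLD1, RFC2 and RFC4 held none. The windows of CDC25A, CDT1, GINS1 and RFC3, and of ORC2 as one that held none, are shown with E2F matches in capitals. They lie at chr3:48188368-48188667 (minus strand) for CDC25A, chr16:88803539-88803838 (plus strand) for CDT1, chr20:25407423-25407722 (plus strand) for GINS1, chr13:33817899-33818198 (plus strand) for RFC3 and chr2:200963611-200963910 (minus strand) for ORC2, each printed along the gene's own strand.
CDC25A: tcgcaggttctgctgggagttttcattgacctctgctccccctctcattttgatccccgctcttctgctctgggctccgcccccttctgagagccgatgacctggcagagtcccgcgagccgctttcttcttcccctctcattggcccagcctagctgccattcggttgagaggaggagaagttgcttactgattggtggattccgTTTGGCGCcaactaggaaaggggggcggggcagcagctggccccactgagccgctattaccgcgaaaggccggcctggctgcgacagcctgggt
CDT1: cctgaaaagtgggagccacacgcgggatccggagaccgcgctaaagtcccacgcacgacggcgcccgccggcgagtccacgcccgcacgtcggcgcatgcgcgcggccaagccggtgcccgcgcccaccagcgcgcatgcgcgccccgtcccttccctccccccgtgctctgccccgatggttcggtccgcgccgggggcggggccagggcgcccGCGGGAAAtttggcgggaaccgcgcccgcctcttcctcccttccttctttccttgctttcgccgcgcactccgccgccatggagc
GINS1: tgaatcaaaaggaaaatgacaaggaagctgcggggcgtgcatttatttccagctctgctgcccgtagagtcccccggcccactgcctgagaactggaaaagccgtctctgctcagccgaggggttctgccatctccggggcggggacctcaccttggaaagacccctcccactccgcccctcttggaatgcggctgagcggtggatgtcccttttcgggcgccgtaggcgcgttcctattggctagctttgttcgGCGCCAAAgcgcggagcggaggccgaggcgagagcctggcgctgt
RFC3: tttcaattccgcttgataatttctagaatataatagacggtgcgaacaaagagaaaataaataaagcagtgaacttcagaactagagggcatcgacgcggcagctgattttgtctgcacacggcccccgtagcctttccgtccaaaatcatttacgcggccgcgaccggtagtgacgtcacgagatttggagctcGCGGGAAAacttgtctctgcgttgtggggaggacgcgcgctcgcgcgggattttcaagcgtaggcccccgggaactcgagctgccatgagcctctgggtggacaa
ORC2: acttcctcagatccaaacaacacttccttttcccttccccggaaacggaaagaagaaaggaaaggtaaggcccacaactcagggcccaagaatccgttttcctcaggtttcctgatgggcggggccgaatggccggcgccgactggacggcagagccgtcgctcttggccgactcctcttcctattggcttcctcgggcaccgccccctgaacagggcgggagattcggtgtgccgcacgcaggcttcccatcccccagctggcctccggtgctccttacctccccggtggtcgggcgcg

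In CDC25A the match covers bases −44 to −37 from the start, in CDT1 −35 to −28 and in RFC3 −55 to −48. In GINS1 it lies just past the start, at bases 6 to 13. These are letters in a window and say nothing of which factor was bound. Only the 4 exact E2F words were sought, so related sequences stay in lower case, such as tttggcggg beside the match in CDT1. A window that held none may still hold such a sequence.

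Among the licensing genes, all 8 were higher in mean and 7 of 8 lay above both controls in both miRs libraries, with a median log2 difference of 0.68. Over all tested genes 49.8% were higher in mean, and 29.5% lay above and 30.0% below both controls in both miRs libraries. GMNN, the inhibitor of CDT1, had 53.2 and 36.5 FPKM in miRs replicates 1 and 2, against 20.7 and 18.3 FPKM in control replicates 1 and 2. The groups did not overlap, and the lower miRs value was still well above the higher control. GMNN averaged 44.9 ± 11.8 FPKM in miRs and 19.5 ± 1.70 FPKM in control (SD, n = 2 each), 2.30-fold, a log2 difference of 1.14 ± 0.22 (SE), for which limma gave an adjusted p of 0.0903. CDT1, which brings the MCM ring to the origin, had 15.4 and 11.9 FPKM in the miRs libraries, against 8.04 and 7.32 FPKM in the controls. Its groups did not overlap either (log2 difference 0.75 ± 0.17, adjusted p = 0.107 in limma). The ratio of GMNN to CDT1 within a library was 3.46 and 3.07 in miRs replicates 1 and 2, against 2.58 and 2.50 in control replicates 1 and 2. RNA of the inhibitor was thus higher relative to RNA of its partner in both miRs libraries, which says nothing of the proteins.

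ORC2, a core subunit of the origin recognition complex, had 10.9 and 10.2 FPKM in the miRs libraries, against 5.95 and 5.88 FPKM in the controls. Its libraries were close within each group and the groups were far apart, at 10.6 ± 0.502 FPKM in miRs and 5.92 ± 0.0512 FPKM in control (SD, n = 2 each). The log2 difference was 0.74 ± 0.13, and limma gave it an adjusted p of 0.0846. All 5 subunits measured here lay above both controls in both miRs libraries, beside 29.5% of all tested genes. ORC5 did so by the least, with 11.369 FPKM in miRs replicate 2 against 11.364 FPKM in control replicate 1. ORC1, the subunit whose protein is degraded in S phase in human cells, had 9.49 and 5.06 FPKM in the miRs libraries, against 4.01 and 3.75 FPKM in the controls, so most of its difference came from replicate 1. ORC6 averaged 17.3 FPKM in miRs against 10.3 FPKM in control and ORC3 18.6 FPKM in miRs against 12.9 FPKM in control. CDC6, the ATPase that works with ORC1 in loading, was the 1 licensing gene whose groups overlapped, at 14.8 and 8.99 FPKM in the miRs libraries, against 9.13 and 7.68 FPKM in the controls.

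Of the 12 helicase genes, 10 were higher in mean, and the median log2 difference was 0.21. Both miRs libraries lay above both controls in 5 (41.7%) and below in 0, beside 29.5% and 30.0% of all tested genes. MCM5, one of the 6 ring subunits, had 45.3 and 48.5 FPKM in the miRs libraries, against 36.0 and 35.6 FPKM in the controls, which are tight pairs that did not overlap (log2 difference 0.38 ± 0.12, adjusted p = 0.165 in limma). MCM7, the most abundant ring subunit, had 63.0 and 49.3 FPKM in the miRs libraries, against 57.3 and 58.4 FPKM in the controls. The miRs values of MCM7 straddled the controls, with a log2 difference of −0.05 ± 0.16. MCM4 at 30.5 FPKM in miRs against 23.2 FPKM in control and MCM6 at 17.8 FPKM in miRs against 15.7 FPKM in control also did not overlap, while MCM2 at 20.5 FPKM in miRs against 19.5 FPKM in control and MCM3 at 34.5 FPKM in miRs against 28.2 FPKM in control did.

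The 6 ring subunits kept their order at both ends: MCM7 had the highest FPKM of the ring and MCM6 the lowest in each of the 4 libraries. The ratio of highest to lowest was 3.76 and 2.63 in miRs replicates 1 and 2, against 3.82 and 3.55 in control replicates 1 and 2. MCM7 lies antisense to exons of AP4M1, and MCM2 to exons of TPRA1, in GENCODE 29, and since the strand setting of the counting is not given in the sources used here, their reads cannot be told apart from those of their neighbours.

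**Figure D3:**
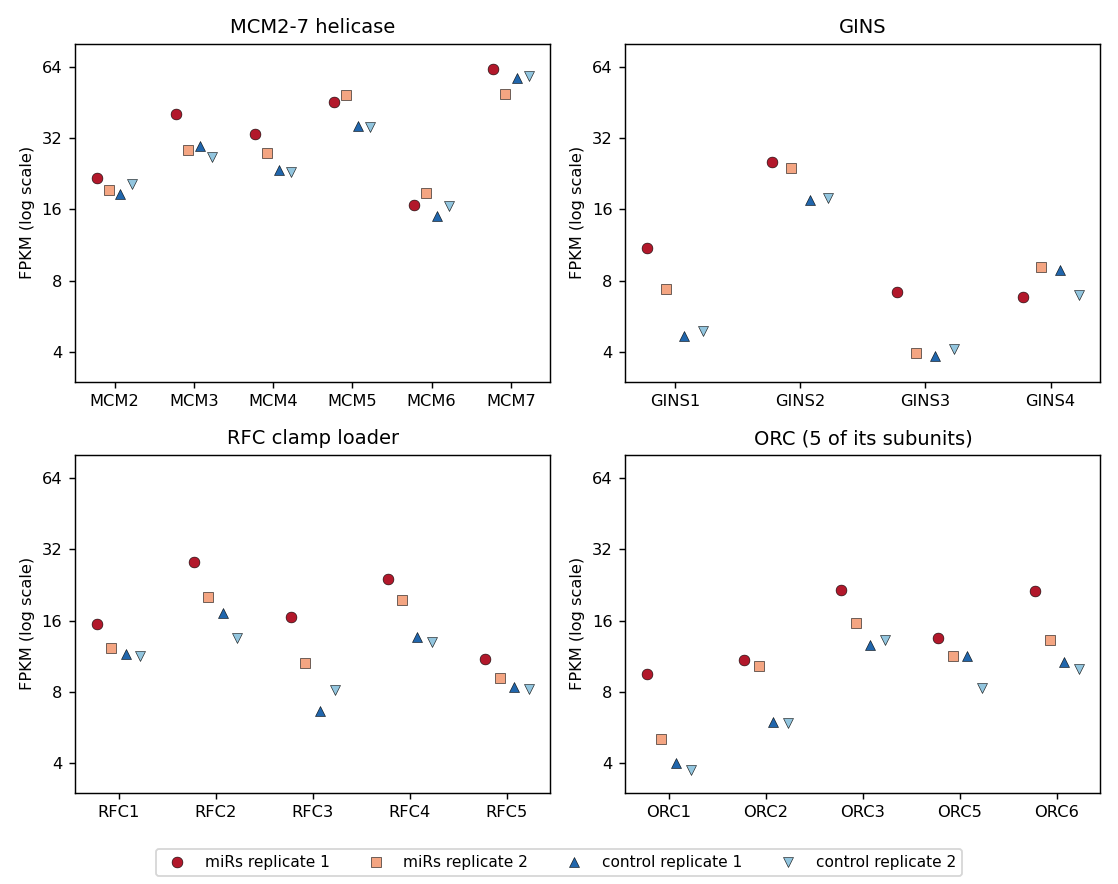
FPKM on a log scale is shown for each subunit of 4 replication complexes, with 1 point per library. The 5 RFC subunits and the 5 ORC subunits have both miRs points above both control points, whereas in the MCM ring this holds for MCM4, MCM5 and MCM6 and in GINS for GINS1 and GINS2.

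GINS holds the MCM ring and CDC45 together. Of its 4 genes, 2 had groups without overlap. GINS1 had 11.0 and 7.37 FPKM in the miRs libraries, against 4.66 and 4.92 FPKM in the controls, without overlap, at 1.92-fold in mean (log2 difference 0.80 ± 0.22, adjusted p = 0.134 in limma). GINS2, the most abundant of the 4, had 25.4 and 24.0 FPKM in the miRs libraries, against 17.5 and 17.8 FPKM in the controls, again without overlap and with pairs close together (adjusted p = 0.127). GINS3 had 7.20 and 3.97 FPKM in the miRs libraries, against 3.86 and 4.13 FPKM in the controls, and GINS4 averaged 7.98 FPKM in miRs against 7.94 FPKM in control. For these last genes the groups overlapped. GINS2 has exons antisense to GSE1.

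CDC45, the remaining part of the working helicase, had the most negative log2 difference of all 46 members, at −0.29 ± 0.28, with 11.4 and 6.65 FPKM in the miRs libraries, against 12.1 and 9.77 FPKM in the controls. The low miRs mean came from replicate 2, without which the log2 difference was 0.06, and the groups overlapped. MCM10, which helps the helicase to start moving, had 6.05 and 2.33 FPKM in the miRs libraries, against 3.51 and 3.55 FPKM in the controls, so its miRs libraries fell above and below a tight control pair. The adjusted p in limma was 0.562 for CDC45 and 0.894 for MCM10.

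Polymerase and primase genes had a median log2 difference of 0.24 over 9 genes, of which 7 were higher in mean. Both miRs libraries lay above both controls in 4 (44.4%) and below in 0, beside 29.5% and 30.0% of all tested genes. POLD1, the catalytic subunit of polymerase delta, had 15.6 and 14.5 FPKM in the miRs libraries, against 9.56 and 10.5 FPKM in the controls. Its pairs did not overlap (log2 difference 0.54 ± 0.13, adjusted p = 0.112 in limma). POLD2, which bridges the catalytic and the small subunits, was the most abundant polymerase gene, at 54.4 and 70.8 FPKM in the miRs libraries, against 70.7 and 69.6 FPKM in the controls. Here replicate 1 was low and replicate 2 was level with the controls (log2 difference −0.17 ± 0.17). The ratio of POLD2 to POLD1 was 3.48 and 4.88 in miRs replicates 1 and 2, against 7.40 and 6.61 in control replicates 1 and 2. The ratio was lower in both miRs libraries.

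POLA2, the regulatory subunit of polymerase alpha, had 18.2 and 10.5 FPKM in the miRs libraries, against 10.7 and 8.70 FPKM in the controls, high in replicate 1 only (log2 difference 0.48 ± 0.29). The catalytic subunit POLA1, at 4.38 FPKM in miRs against 3.75 FPKM in control, and the primase catalytic subunit PRIM1, at 6.11 FPKM in miRs against 5.04 FPKM in control, did not overlap between groups but differed little. PRIM2, the large primase subunit, averaged 9.80 FPKM in miRs against 10.2 FPKM in control and overlapped. POLE, the catalytic subunit of polymerase epsilon, had 8.29 and 10.1 FPKM in the miRs libraries, against 7.41 and 6.77 FPKM in the controls, without overlap, and was one of the members with more FPKM in replicate 2 than in replicate 1. Its partner POLE2 had 6.99 and 3.98 FPKM in the miRs libraries, against 3.32 and 4.11 FPKM in the controls, in the other order. POLD3 averaged 6.53 FPKM in miRs against 5.39 FPKM in control, and its groups overlapped. On its own strand PRIM1 shares exon bases with NACA and AC117378.1. So do POLA2 with AP000944.2, POLD1 with AC020909.1 and POLD3 with AP001372.2, and reads may have been divided between them.

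In the clamp and its loader all 6 genes lay above both controls in both miRs libraries, with a median log2 difference of 0.47. PCNA, the clamp, was the most abundant of the 46 members, at 101 and 72.6 FPKM in the miRs libraries, against 66.7 and 67.8 FPKM in the controls (log2 difference 0.34 ± 0.19, adjusted p = 0.342 in limma). The excess of PCNA over control was large in replicate 1 and small in replicate 2. RFC4 had 24.0 and 19.6 FPKM in the miRs libraries, against 13.7 and 13.0 FPKM in the controls (log2 difference 0.67 ± 0.15, adjusted p = 0.105), with a clear gap between the groups. RFC3 had 16.6 and 10.6 FPKM in the miRs libraries, against 6.65 and 8.11 FPKM in the controls (adjusted p = 0.165) and RFC2 had 28.2 and 20.1 FPKM in the miRs libraries, against 17.3 and 13.6 FPKM in the controls (adjusted p = 0.202). Both stood higher in every miRs library, with a wide spread between the 2 libraries.

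RFC1, the large subunit, and RFC5 had the smallest differences of the loader, at 13.9 FPKM in miRs against 11.5 FPKM in control for RFC1 and 10.1 FPKM in miRs against 8.32 FPKM in control for RFC5. The ratio of RFC4 to RFC1 was 1.55 and 1.60 in miRs replicates 1 and 2, against 1.18 and 1.14 in control replicates 1 and 2. RNA of RFC4, a small subunit, thus stood higher relative to RNA of RFC1. RFC5, another small subunit, had the same fold of mean FPKM in miRs over control as RFC1, 1.21. Ratios were also taken for other pairs. That of CDC6 to ORC1 was lower in both miRs libraries. Those of ORC1 to ORC2, RRM2 to RRM1 and POLE to POLE2 overlapped between groups. RFC4 has exons antisense to EIF4A2 and RFC5 to WSB2, and 3 pseudogenes are named after PCNA and 1 each after RFC3 and RFC5, which makes the levels of these genes uncertain. Among the 46 members, 7 share exon bases with another gene on their own strand and 16 with one on the other strand, and 8 have pseudogenes named after them.

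**Figure D4:**
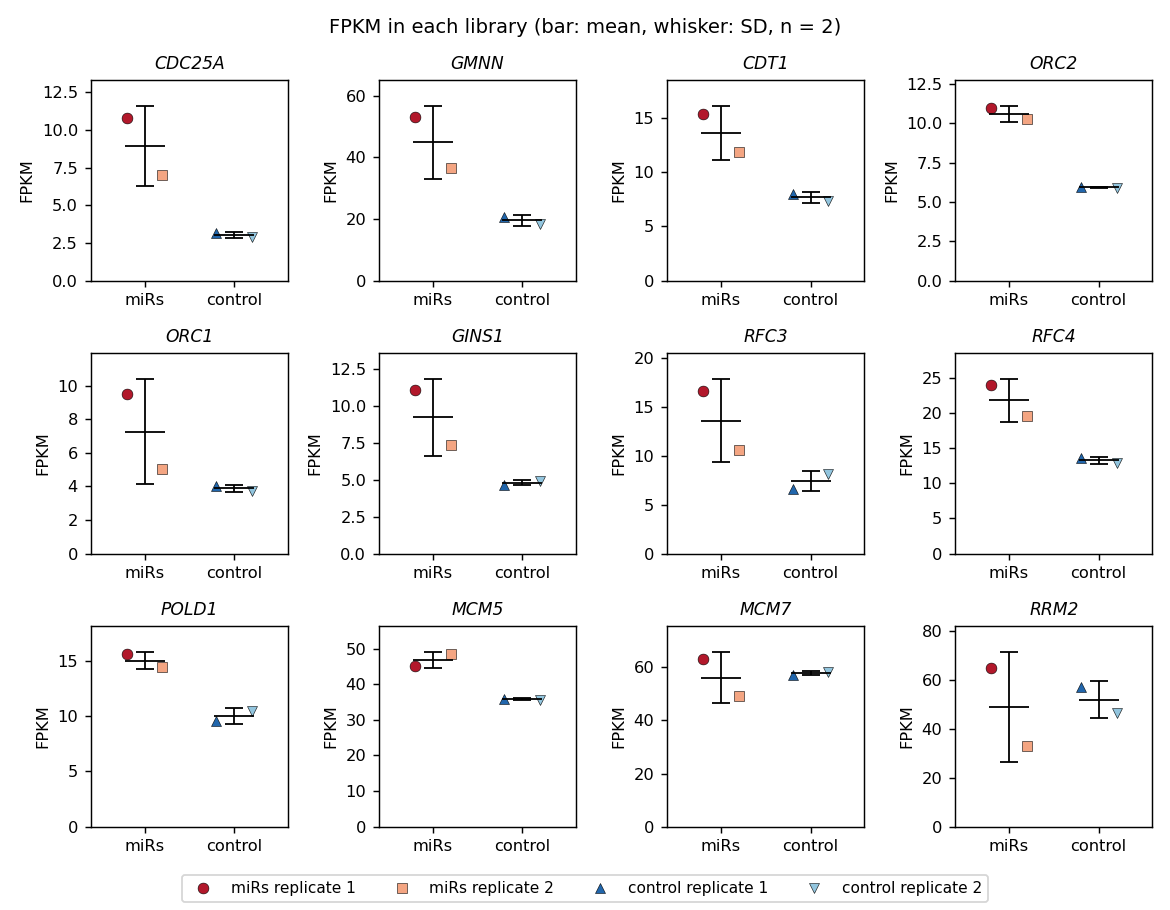
FPKM in each library is shown for 12 replication genes, with group means (bars) and SD (whiskers, n = 2 per group) and each axis starting at 0. CDC25A, GMNN, CDT1, ORC2, ORC1, GINS1, RFC3, RFC4, POLD1 and MCM5 show both miRs points above both control points, while in MCM7 and RRM2 the miRs points lie on either side of the controls.

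RPA, which coats single-stranded DNA, differed by subunit. Both miRs libraries lay above both controls in 1 of 3 genes (33.3%) and below in 0, beside 29.5% and 30.0% of all tested genes. RPA1, the large subunit, had 23.9 and 23.2 FPKM in the miRs libraries, against 23.8 and 22.1 FPKM in the controls, so all 4 libraries were level (log2 difference 0.04 ± 0.12). RPA2, the subunit phosphorylated when forks stall, had 26.3 and 18.8 FPKM in the miRs libraries, against 20.1 and 13.3 FPKM in the controls, and its groups overlapped. RPA3, the smallest subunit, had 7.69 and 7.81 FPKM in the miRs libraries, against 6.08 and 5.82 FPKM in the controls (log2 difference 0.33 ± 0.13, adjusted p = 0.208 in limma), which was the 1 RPA gene without overlap. RPA3 shares antisense exons with UMAD1, RPA1 with SMYD4, and 3 pseudogenes are named after RPA2.

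Genes that finish the new strand were all 4 higher in mean, 2 of them without overlap. CHAF1B, the middle subunit of the histone chaperone, had 11.9 and 9.37 FPKM in the miRs libraries, against 8.78 and 7.93 FPKM in the controls (log2 difference 0.31 ± 0.17, adjusted p = 0.325 in limma). FEN1, the flap endonuclease, had 33.8 and 18.5 FPKM in the miRs libraries, against 22.2 and 18.4 FPKM in the controls. Replicate 1 stood apart for FEN1, since replicate 2 was almost equal to control replicate 2. LIG1, the ligase of Okazaki fragments, averaged 15.4 FPKM in miRs against 12.8 FPKM in control without overlap and CHAF1A, the large subunit of the chaperone, 12.0 FPKM in miRs against 9.72 FPKM in control with overlap. FEN1 shares exon bases with FADS2 and, on the other strand, with TMEM258, and CHAF1B with MORC3, so reads may have been divided between them.

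In nucleotide supply 2 of 3 genes had a lower mean in miRs, and the median log2 difference was −0.14. RRM2, the small subunit of ribonucleotide reductase that limits dNTP production in S phase, had 65.0 and 33.1 FPKM in the miRs libraries, against 57.3 and 46.7 FPKM in the controls. RRM2 was highest in 1 miRs library and lowest in the other, so the groups overlapped (log2 difference −0.15 ± 0.35, adjusted p = 0.814 in limma). The large subunit RRM1 averaged 43.9 FPKM in miRs against 47.9 FPKM in control. TYMS, the thymidylate synthase, had 54.9 and 53.6 FPKM in the miRs libraries, against 47.0 and 46.4 FPKM in the controls, a small difference without overlap (log2 difference 0.21 ± 0.12). TYMS shares antisense exons with ENOSF1, and 3 pseudogenes are named after RRM2 and 2 after TYMS.

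CDC25A, the phosphatase that removes inhibitory phosphates from CDK2 and so helps S phase to begin, had the largest difference of the 46. It had 10.8 and 7.04 FPKM in miRs replicates 1 and 2, against 3.14 and 2.89 FPKM in control replicates 1 and 2. Both miRs values lay far above the controls, which were close together. CDC25A averaged 8.93 ± 2.67 FPKM in miRs and 3.02 ± 0.176 FPKM in control (SD, n = 2 each), 2.96-fold, with a log2 difference of 1.28 ± 0.23 (SE), for which limma gave an adjusted p of 0.0863.

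The calls depended on which library was left out. Without miRs replicate 1, limma called 7 members, CDC25A, CDT1, GMNN, MCM5, ORC2 and RFC4 higher and RRM2 lower (log2 difference −0.63), where 8.43% of all genes were called higher and 10.1% lower. Without miRs replicate 2 it called 26 members, 25 higher and POLD2 lower, where 16.0% of all genes were called higher and 17.1% lower. For the 7 members named first, log2 differences without miRs replicate 1 and without miRs replicate 2 follow in that order. They were 1.003 and 1.558 for CDC25A, 0.572 and 0.919 for CDT1, and 0.872 and 1.405 for GMNN. For ORC2 they were 0.7 and 0.788, for RFC4 0.529 and 0.804, and for MCM5 0.428 and 0.332. For RRM2 they were −0.627 and 0.323. Both fits share the 2 controls, and calls common to both were not counted over all genes. In each the lone miRs library is assumed to vary like the controls, and the controls are the closer pair. Without control replicate 1 limma called 0 members, where it called 0.00% of all genes. Without control replicate 2 it called 0 members, where it called 0.00844% of all genes, 1 gene that was lower. The members' median log2 difference came to 0.19 when miRs replicate 1 was left out and to 0.51 when miRs replicate 2 was.

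Other replisome and origin genes were described from a list of 37 that holds none of the 46. Of these 36 were tested, with a median log2 difference of 0.32. Both miRs libraries lay above both controls in 25 (69.4%) and below in 3 (8.33%), beside 29.5% and 30.0% of all tested genes. HELB stayed under the minimum. In limma 0 passed over all genes, with 12 higher and 1 lower at an unadjusted p under 0.05, beside 11.2% and 13.0% of all tested genes. DBF4 and CDC7, the subunits of the kinase that fires licensed origins, averaged 7.95 FPKM in miRs against 4.55 FPKM in control and 4.33 FPKM in miRs against 2.31 FPKM in control. TICRR, which helps to bring CDC45 to the origin, averaged 3.70 FPKM in miRs against 1.79 FPKM in control (adjusted p = 0.10). TIMELESS, which steadies the fork, had 16.0 and 15.6 FPKM in the miRs libraries, against 10.7 and 10.8 FPKM in the controls (adjusted p = 0.108). RNASEH2B, of the enzyme that removes ribonucleotides from DNA, averaged 10.8 FPKM in miRs against 7.59 FPKM in control. None overlapped between groups.

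Of the 3 genes of this list below both controls, POLD4, the smallest subunit of polymerase delta, had 13.6 and 18.5 FPKM in the miRs libraries, against 27.6 and 24.8 FPKM in the controls, with both miRs libraries under both controls (log2 difference −0.68 ± 0.19, adjusted p = 0.136 in limma). POLE4, a histone-fold subunit of polymerase epsilon, had 38.9 and 39.9 FPKM in the miRs libraries, against 44.4 and 54.1 FPKM in the controls, also without overlap, and its partner POLE3 had 43.7 and 27.6 FPKM in the miRs libraries, against 25.5 and 20.8 FPKM in the controls on the other side. RNASEH2C, named with POLE3 and POLE4 after the values were seen, averaged 8.62 FPKM in miRs against 11.1 FPKM in control and was the last of the 3.

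Of 20 further genes of nucleotide supply, 8 lay above both controls in both miRs libraries and 2 below, beside 29.5% and 30.0% of all tested genes. Their median log2 difference was 0.16. SAMHD1, the enzyme that breaks down dNTPs and that interferon induces in many cells, had 119 and 43.1 FPKM in the miRs libraries, against 5.83 and 6.84 FPKM in the controls. That is 12.8-fold in mean, with a log2 difference of 3.32 ± 0.50 and an adjusted p of 0.0731 in limma, so it did not pass over all genes. UMPS, of pyrimidine synthesis, averaged 6.19 FPKM in miRs against 3.97 FPKM in control and GART, of purine synthesis, 35.0 FPKM in miRs against 24.1 FPKM in control. TK1, the thymidine kinase of S phase, was named after its values were seen, and averaged 109 FPKM in miRs against 108 FPKM in control. In limma 0 of the 20 passed, with 3 higher and 0 lower at an unadjusted p under 0.05, beside 11.2% and 13.0% of all tested genes.

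Of 30 genes that control entry into S phase, 29 were tested, and the median log2 difference was 0.04. Both miRs libraries lay above both controls in 8 (27.6%) and below in 6 (20.7%), close to or under the 29.5% and 30.0% of all tested genes. In limma 0 passed, with 5 higher and 4 lower at an unadjusted p under 0.05, beside 11.2% and 13.0% of all tested genes. RBL2, the pocket protein that represses E2F targets in resting cells, had 6.18 and 6.48 FPKM in the miRs libraries, against 10.8 and 10.9 FPKM in the controls (adjusted p = 0.0863). CDKN1A, the CDK inhibitor p21, had 197 and 310 FPKM in the miRs libraries, against 527 and 529 FPKM in the controls (adjusted p = 0.102). E2F1 averaged 5.44 FPKM in miRs against 9.08 FPKM in control and E2F5 3.08 FPKM in miRs against 1.56 FPKM in control, and E2F7, a repressor of the family, 11.9 FPKM in miRs against 4.88 FPKM in control. LIN9, of the complex that drives mitotic genes, averaged 3.65 FPKM in miRs against 1.72 FPKM in control. Among the 20 mitotic genes 0 passed, with 10 higher and 0 lower at an unadjusted p under 0.05, and the median log2 difference was 0.39. CCNA2, the cyclin of S phase and G2, averaged 43.1 FPKM in miRs against 24.8 FPKM in control (adjusted p = 0.0822).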

How the data were processed

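RNA of 2 miRs and 2 control libraries of MRC5 was analysed, grouped by the treatment label. Per the labels' protocols, RNA was purified with an RNeasy kit and made into libraries with TruSeq Stranded mRNA. Among the tools in the submitters' processing notes are Cuffdiff 2.2.1, TopHat2 2.1.1, SAMtools 0.1.18 and Bowtie2 2.2.8, with build hg19 and no roles. The deposited FPKM were taken as the authors made them, with 1 value for each symbol in each library. The annotation, strand setting and scaling behind them are not stated in these sources, and depth is unknown.

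The 46 members and all gene lists were chosen with earlier results of these data known. FPKM plus a pseudocount of 1 was put on the log2 scale. Genes whose 4 libraries averaged 1 FPKM or more (11860) entered limma 3.58.1 (R 4.3.3), a 2-sided test with a trended moderated variance on 2 residual degrees of freedom. P-values were adjusted by Benjamini-Hochberg over all tested genes, with 0.05 as the threshold. The procedure was tested on simulated data. Values in every library were planned, in each role group, for the 2 largest differences, the most abundant gene, any gene with an unadjusted p under 0.05 and genes of at least 20 FPKM that lay against the majority. In each other list up to 6 genes with the smallest p were to be named. Library values of other members were added after their values were seen. Motifs were searched and exon overlaps found by symbol with Python 3.11.15 and pandas 2.3.3, in RefSeq promoters (first listed start) and GENCODE 29. Tried as alternatives were 0.1 as pseudocount, 5 FPKM as minimum or none at all, rescaling by medians of ratios or by quantiles, an untrended variance, a block for replicate number, and leaving out each library.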

Additional observations from a re-analysis of the deposited data

How the results depend on the processing

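The number of members called was 0 with a pseudocount of 0.1, with the minimum dropped or set to 5 FPKM, with either rescaling, with an untrended variance and with the replicate block. It was 0 to 26 when 1 library was left out. The median log2 difference of the members was 0.30 to 0.35 under those settings that keep all libraries, and 0.19 to 0.51 when 1 library was left out. Members above both controls numbered 25 to 27 with all libraries, beside 25.7% to 30.4% of all tested genes. When 1 library was left out they numbered 29 to 43, beside 35.8% to 43.9%. Members below both numbered 0 with all libraries, beside 25.4% to 30.6% of all tested genes. When 1 library was left out they numbered 0 to 8, beside 35.9% to 44.8%. With 1 library fewer the condition is easier to meet, so the counts cannot be compared between these settings. Over all genes, 29 were called, against 0 with the minimum dropped (3338 at an unadjusted p under 0.05), 6 after quantile normalization, 99 with the replicate block and 0 to 3906 when 1 library was left out. Same-numbered libraries deviated together only weakly (r = 0.20 across 11860 genes, with 2 pairs), so the numbers are not taken as pairs. Leaving out 1 library turned the sign of the log2 difference in 14 of the 46 members: CDC45 (−0.634 to 0.0641), CHAF1A (−0.0595 to 0.554), FEN1 (−0.12 to 0.71), GINS3 (−0.0085 to 0.715), GINS4 (−0.185 to 0.191), MCM2 (−0.0115 to 0.147), MCM7 (−0.23 to 0.12), MCM10 (−0.447 to 0.637), POLD2 (−0.36 to 0.014), POLD3 (−0.0999 to 0.512), PRIM2 (−0.361 to 0.222), RPA1 (−0.017 to 0.0899), RRM1 (−0.319 to 0.0484) and RRM2 (−0.63 to 0.32). Among the alternatives that keep all libraries, GINS4 alone turned, to −0.0285 after quantile normalization. The cause was not tested. Unknown depth and 2 libraries per group limit what can be told of small differences.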
